A study of Homo sapiens with 8 samples.

Results

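Genes that descend from the envelope (env) gene of endogenous retroviruses were followed through RNA-seq of HCT116 cells in which UHRF1 was depleted. The 9 genes were chosen by name, as the rows of the 8 gene abundance tables whose gene name is ERVFRD-1, ERVW-1, ERVMER34-1, ERV3-1, ERVV-1, ERVV-2, ERVH48-1, ERVK3-1 or ERVK13-1. All 9 were found, once in every table, among 60649 gene identifiers. The rule uses names only, although earlier results of these data were known when the family was chosen. The tables do not record which stretch of each gene is of env origin. In the GENCODE version 44 annotation 8 of them are protein-coding, and ERVK13-1 is a long non-coding RNA gene.

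HCT116 is a human colorectal carcinoma cell line. UF1hypo is a clone made from it by CRISPR-Cas9, heterozygous for a UHRF1 knockout, and it stands here as a single clone. Either line carried a lentiviral hairpin, a scrambled control (shScr) or a hairpin against UHRF1 (shUHRF1), and the infected cells were kept as puromycin-selected pools. The 4 groups, HCT116 shScr, HCT116 shUHRF1, UF1hypo shScr and UF1hypo shUHRF1, had 2 libraries each. The comparisons ask how these genes respond when UHRF1 is knocked down in cells with full or reduced UHRF1 gene dosage, and how the clone differs from its parent. The sources used here do not say that the libraries of a group came from separate cultures, so the p-values measure only the spread between libraries, which may be technical.

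Retroviruses that entered the germ line of human ancestors left copies whose gag and pol genes have mostly decayed, while a few env genes kept an open reading frame. Syncytin-1 (ERVW-1) and syncytin-2 (ERVFRD-1) fuse placental trophoblast cells into the syncytiotrophoblast, and suppressyn (ERVH48-1) blocks the receptor that syncytin-1 uses. Most endogenous retroviral sequence in adult cells is held silent by CpG methylation and by repressive chromatin, and UHRF1 recognises hemimethylated CpG after replication and recruits the maintenance methyltransferase DNMT1. The families to which these genes belong also have many degraded copies, so short reads can be shared between a gene and its relatives.

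The sequence just before the start site of the 4 genes with the highest levels is shown because CpG sites are where DNA methylation is placed. Each line gives the 250 bases before the RefSeq start on GRCh38.p14, 5′ to 3′ along the gene, with every CpG in capitals. The windows are chr4:52751426-52751675 on the minus strand for ERVMER34-1, chr16:2673440-2673689 on the minus strand for ERVK13-1, chr19:58305127-58305376 on the plus strand for ERVK3-1 and chr7:65006688-65006937 on the minus strand for ERV3-1.
ERVMER34-1: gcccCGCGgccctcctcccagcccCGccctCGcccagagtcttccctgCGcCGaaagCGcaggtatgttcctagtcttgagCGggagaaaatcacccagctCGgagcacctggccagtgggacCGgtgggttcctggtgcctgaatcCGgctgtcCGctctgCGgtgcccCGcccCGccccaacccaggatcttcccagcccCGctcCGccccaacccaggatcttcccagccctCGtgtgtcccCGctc
ERVK13-1: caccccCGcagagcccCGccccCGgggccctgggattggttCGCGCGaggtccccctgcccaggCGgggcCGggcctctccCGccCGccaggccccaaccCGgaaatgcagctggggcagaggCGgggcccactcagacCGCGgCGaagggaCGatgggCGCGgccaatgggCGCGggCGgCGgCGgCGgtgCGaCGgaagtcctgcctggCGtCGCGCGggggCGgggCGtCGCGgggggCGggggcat
ERVK3-1: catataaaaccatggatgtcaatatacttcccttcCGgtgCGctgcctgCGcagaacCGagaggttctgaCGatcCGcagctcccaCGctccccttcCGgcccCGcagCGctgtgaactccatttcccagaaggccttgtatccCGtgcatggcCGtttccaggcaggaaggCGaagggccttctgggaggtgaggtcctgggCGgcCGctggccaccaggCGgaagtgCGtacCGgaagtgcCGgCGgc
ERV3-1: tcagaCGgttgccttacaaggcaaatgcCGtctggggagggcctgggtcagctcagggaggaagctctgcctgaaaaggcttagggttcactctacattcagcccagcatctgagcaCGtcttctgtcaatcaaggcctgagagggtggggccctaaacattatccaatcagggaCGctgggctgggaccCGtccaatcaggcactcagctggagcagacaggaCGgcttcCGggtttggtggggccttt

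The window of ERVK13-1 had 35 CpG sites, more than 94.2% of the 35116 promoter windows of the same length in the RefSeq table, whose median was 11. ERVK3-1 had 20 CpG sites, ERVMER34-1 had 19 and ERV3-1 had 7 at the start shown. Fewer were found in ERVW-1, with 4, and in ERVV-1, with 3. Promoters were held for 6 of the 9 genes, and ERVFRD-1, ERVV-2 and ERVH48-1 were not among them. ERV3-1 has another listed start, whose window held 3 CpG sites. The GC box GGGCGG, read on both strands, matched 5 times in ERVK13-1, 4 times in ERVMER34-1 and 1 time in ERVK3-1, and 42.6% of all windows hold it. The TATA box TATAAA matched 1 time in ERVK3-1 and in ERVW-1, against 10.7% of all windows. CCAAT matched 2 times each in ERV3-1 at the start shown and in ERVK13-1, and 1 time each in ERVW-1 and ERVV-1, against 32.0%. The window of the other ERV3-1 start held 1 match of GGGCGG and 1 of TATAAA. None of these motifs contains another, and a match describes the sequence only. DNA methylation was not analysed here.

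The 9 genes fell into 3 classes by level in the 8 libraries. ERVK3-1, ERVMER34-1, ERV3-1 and ERVK13-1 had more than 1 TPM (StringTie's abundance unit, scaled for the length of a gene and summing to a fixed total) in every library. ERVW-1, ERVH48-1 and ERVFRD-1 stayed below 1 TPM, and ERVV-1 and ERVV-2 were listed at 0 in all 8. In RNA from whole cultures, fewer cells that express a gene and less of its RNA per cell cannot be told apart. The summed level of the 9 genes ranged from 49.0 to 68.8 TPM per library. The tables hold no read counts, and aligned bases recovered from them ranged from 5.42 to 7.83 gigabases. In genes with 1 annotated transcript, 1 TPM then corresponds to a mean coverage of 2.34 to 3.44 reads per base. ERVK3-1, ERVMER34-1, ERV3-1, ERVK13-1 and ERVW-1 had less coverage for their TPM. In HCT116 shScr replicate 1, ERVK3-1 had a coverage of 22.5 at 28.3 TPM and ERVMER34-1 17.7 at 21.5. A level near 0.1 TPM thus rests on a small fraction of the coverage at 1 TPM, and how many reads lie behind it is unknown.

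**Figure D1:**
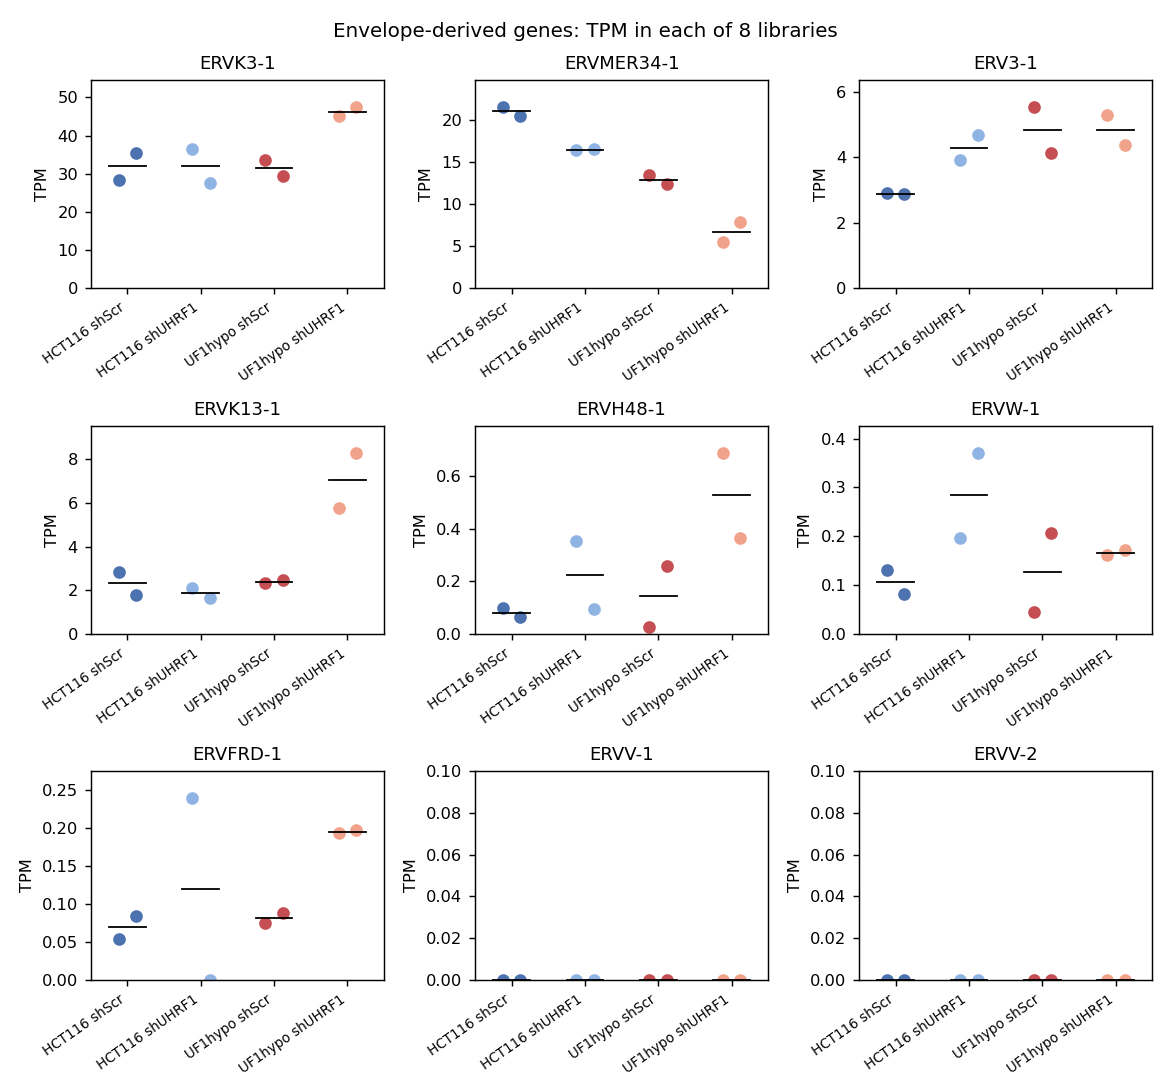
TPM (linear axis from 0, scaled separately in each panel) of the 9 envelope-derived genes by group, with a point for each of the 2 libraries and a bar at their mean. ERVMER34-1 steps down from 21.0 TPM in HCT116 shScr to 6.68 in UF1hypo shUHRF1, ERVK13-1 and ERVK3-1 are highest in UF1hypo shUHRF1, and ERVV-1 and ERVV-2 lie at 0 throughout.

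ERVK3-1 (ENSG00000142396.10, chromosome 19, 58305319 to 58315663, plus strand) had the highest level of the family in each group. Its mean was 31.9 ± 5.10 TPM in HCT116 shScr (SD, n = 2 libraries, as for all groups) and 46.3 ± 1.73 in UF1hypo shUHRF1. ERVMER34-1 (ENSG00000226887.8, chromosome 4, 52722618 to 52751586, minus strand), which encodes the secreted envelope protein HEMO, came second in 3 of the 4 groups. ERV3-1 (ENSG00000213462.5, chromosome 7, 64990356 to 65006743, minus strand), the env gene of the ERV3 group, and ERVK13-1 (ENSG00000260565.7, chromosome 16, 2660348 to 2682379, minus strand) followed. In HCT116 shScr these last genes had 2.88 ± 0.0356 and 2.32 ± 0.749 TPM, a gap smaller than the SD of ERVK13-1. In UF1hypo shUHRF1 the order changed, with ERVK13-1 at 7.04 ± 1.79 TPM and ERVMER34-1 at 6.68 ± 1.65, whose libraries overlapped.

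The syncytins and suppressyn had low levels. ERVW-1 (ENSG00000242950.7, chromosome 7, 92468380 to 92477986, minus strand) had 0.132 and 0.0816 TPM with shScr and 0.196 and 0.371 with shUHRF1 in HCT116, and 0.0455 and 0.206 with shScr and 0.162 and 0.171 with shUHRF1 in UF1hypo. ERVFRD-1 (ENSG00000244476.3, chromosome 6, 11102489 to 11111725, minus strand) had 0.0534 and 0.0839, 0.238 and 0, 0.0747 and 0.0873, and 0.193 and 0.197 TPM in the same order of groups. A library at 0 beside a library at 0.238 shows how far single values at this level can scatter. ERVH48-1 (ENSG00000233056.3, chromosome 21, 42916803 to 42925646, minus strand) had 0.0966 and 0.0625, 0.352 and 0.0959, 0.0267 and 0.260, and 0.690 and 0.366 TPM. In UF1hypo both ERVFRD-1 and ERVH48-1 had their shUHRF1 libraries above the shScr libraries, while ERVW-1 overlapped. None of the 3 was tested, since a gene needed more than 1 TPM in at least 1 library of a comparison. Without that requirement the log2 difference in UF1hypo was 0.42 for ERVH48-1 (limma, adjusted p = 0.237), 0.14 for ERVFRD-1 (adjusted p = 0.469) and 0.05 for ERVW-1 (adjusted p = 0.784).

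ERVV-1 (ENSG00000269526.1, chromosome 19, 53013921 to 53016122, plus strand) and ERVV-2 (ENSG00000268964.3, chromosome 19, 53044740 to 53051680, plus strand), placenta-expressed env genes that are close copies of each other, lie 28617 bp apart. Reads from such copies can be split or dropped by the counting, and ERVV-1 and ERVV-2 are reported only as listed at 0. ZNF702P, a transcribed pseudogene on the opposite strand across ERVV-1 that shares no annotated exon base with it, was detected in these libraries. It had 0.831 and 1.28 TPM in UF1hypo shScr against 6.03 and 2.66 in UF1hypo shUHRF1, a log2 difference of 1.31 (limma, SE 0.331, adjusted p = 0.0406). That call was kept in 5 of 21 alternatives, and without replicate 1 of UF1hypo shUHRF1 the difference was 0.84.

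UHRF1 itself was measured first as a check of the hairpin. In HCT116 it had 87.5 and 98.4 TPM with shScr and 31.7 and 32.7 with shUHRF1. The UF1hypo libraries had 47.3 and 50.6 with shScr and 34.1 and 21.1 with shUHRF1. Both shUHRF1 libraries of each line lay below both shScr libraries. The RNA levels after knockdown overlapped between the lines. They cover the whole gene and do not measure UHRF1 protein. By western blot the study found less UHRF1 protein in UF1hypo than in HCT116, and a further sharp loss with the hairpin in UF1hypo. In what follows a difference is that of the mean log2(TPM + 1), which understates the change of low genes, and a gene was called when its limma adjusted p (Benjamini-Hochberg over all genes tested) was below 0.05 and the difference exceeded 1 on the log2 scale. UHRF1 changed by −1.498 in HCT116 (limma, adjusted p = 0.0744) and by −0.84 in UF1hypo (adjusted p = 0.0468), so neither change was called. A single gene compared in 2 libraries against 2 could not reach a two-sided exact permutation p below 0.333.

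UHRF1 knockdown in UF1hypo raised ERVK13-1, lowered ERVMER34-1 by less than the size threshold, and left ERV3-1 within its spread. Of the 9 genes 4 were tested and 1 was called, ERVK13-1, where 8.24% of the 18796 genes tested were called. The median difference of the 4 tested genes was 0.27, beside 0.10 over all genes tested. With 4 genes this share cannot be set apart from the background.

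ERVK13-1 had 2.33 and 2.46 TPM in UF1hypo shScr against 5.78 and 8.31 in UF1hypo shUHRF1. Both knockdown libraries lay above every other library of the series, whose highest value was 2.85. The difference was 1.23 (limma, SE 0.269, adjusted p = 0.0241). The call depended on single libraries. Without replicate 2 of UF1hypo shUHRF1 the difference was 0.999 and fell short of the size threshold, without either UF1hypo shScr library the adjusted p was 0.155 or 0.121, and without either HCT116 shUHRF1 library it was 0.0509 or 0.0508. The adjusted p ranged from 0.00601 to 0.229 over 21 alternatives, and the difference stayed positive in each, from 0.94 to 1.496. The call itself was kept in 12 of them.

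ERVMER34-1 had 13.4 and 12.4 TPM in UF1hypo shScr against 5.51 and 7.84 in UF1hypo shUHRF1, so the groups did not overlap. The difference was −0.87 (limma, SE 0.204, adjusted p = 0.0315), which passed the test but not the size threshold. Without replicate 2 of UF1hypo shUHRF1 it was −1.09 (adjusted p = 0.00443) and the gene was called lower, and without replicate 1 it was −0.65. The adjusted p exceeded 0.05 in 9 of 22 alternatives, with a highest value of 0.213.

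ERVK3-1 had 33.7 and 29.5 TPM in UF1hypo shScr against 45.1 and 47.5 in UF1hypo shUHRF1. The knockdown libraries again lay above the controls, by a log2 difference of 0.54 that did not pass the test (limma, SE 0.198, adjusted p = 0.126). ERV3-1 had 5.53 and 4.12 TPM with shScr and 5.29 and 4.37 with shUHRF1, which overlapped, and its difference was 0.01 (SE 0.232, adjusted p = 0.990). That sign turned under FPKM, median-ratio scaling and quantile normalization, so no direction is given for ERV3-1 in UF1hypo.

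The UF1hypo shUHRF1 libraries differed from each other more than those of other groups. Pearson's r across genes was 0.959 between them and 0.987 between the replicates of each other group, and over genes, which are no independent replicates, their difference ranked with GC content at a Spearman's rho of 0.711. The same value was −0.369 between the UF1hypo shScr replicates, the controls of this comparison, and −0.0301 and −0.0360 in the HCT116 groups. With GC content and length adjusted for, the difference of ERVK13-1 was 1.24 (limma, adjusted p = 0.00601) and that of ERVMER34-1 −0.78 (adjusted p = 0.0039).

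The summed levels of markers of other cell types were also higher in UF1hypo shUHRF1. The summed TPM of 10 leukocyte markers was 41.1 to 43.8 in UF1hypo shScr and 82.8 to 115 in UF1hypo shUHRF1, mostly CD68, a lysosomal protein of macrophages, with 107 and 77.7. CD68 was called higher than in UF1hypo shScr (1.11, limma, adjusted p = 0.0106), a call lost without either UF1hypo shScr library and without replicate 1 of UF1hypo shUHRF1, where the difference was 0.88. CD3D, a T cell receptor subunit, had 0 and 0.287 TPM in UF1hypo shScr and 5.05 and 2.99 after knockdown, and was called higher in all 22 alternatives (2.12, adjusted p = 0.0038). Among the defining leukocyte markers PTPRC had 0.0561 and 0.0728, MS4A1 0 and 0.180, and FCGR3A was at 0 after knockdown. The sum over 7 fibroblast markers was 23.03 to 29.0 with shScr and 40.6 to 67.2 with shUHRF1, nearly all COL1A1, with COL1A2 and LUM at 0 in the group. FAP, a fibroblast protease, went from 0 and 0.102 TPM to 0.978 and 2.27 and was called higher (1.28, adjusted p = 0.0273), in 10 of 20 alternatives and not without any 1 library of the other 3 groups. The sum over 5 endothelial markers was 0.182 to 0.227 and 0.496 to 0.733. That over 15 syncytiotrophoblast markers was 2.96 to 4.67 and 8.19 to 10.9, with CGA, CGB3, CSH1, INSL4, HSD3B1 and LGALS13 at 0 in every library. PSG4, a pregnancy-specific glycoprotein gene, was listed at 0 in the other 6 libraries and had 1.16 and 1.87 TPM in UF1hypo shUHRF1, and was called higher (adjusted p = 0.0125) in 16 of 21 alternatives, not without either UF1hypo shScr library. CGB5, a chorionic gonadotropin subunit gene, had 0.433 and 1.34 TPM with shScr and 3.75 and 1.77 with shUHRF1 (0.99, adjusted p = 0.191). KISS1, the kisspeptin gene, had 2.02 and 1.201 against 3.89 and 2.80 TPM (0.74, adjusted p = 0.136). Both lay above their controls and did not pass the test. PSG4 and CGB5 have close copies with which reads can be shared. CD3D, ITGAM, FAP and PSG4 stayed below 1 TPM in UF1hypo shScr and passed the TPM filter only through the knockdown libraries. A call for them in UF1hypo could thus only be higher. Of 12 colon epithelial markers 7, among them EPCAM, CDH1 and the keratins, exceeded 1 TPM in each group, while CDX1, VIL1, CDH17, LGALS4 and GPA33 did not. The part of these markers in the values of the envelope-derived genes was not tested.

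In HCT116 the same knockdown called none of the envelope-derived genes. Of the 4 genes tested 0 were called by limma, beside 3 of 16975 genes (0.0177%), and 0 of the 4 had an unadjusted p below 0.05, against 1042 of all genes. Their median difference was −0.10, beside −0.04 over all genes tested. The count over all genes depends on the fit. With the 4 libraries of this comparison alone it was 79 of 16975, and again 0 of the envelope-derived genes.

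ERVMER34-1 had 21.5 and 20.4 TPM in HCT116 shScr and 16.3 and 16.5 in HCT116 shUHRF1, with no overlap and a log2 difference of −0.33 (limma, SE 0.207, adjusted p = 0.915). ERV3-1 had 2.91 and 2.86 TPM against 3.89 and 4.67, where both knockdown libraries lay above the controls, with a difference of 0.44 (SE 0.238, adjusted p = 0.902). ERVK3-1 had 28.3 and 35.5 against 36.6 and 27.6 TPM, and ERVK13-1 had 2.85 and 1.79 against 2.09 and 1.63. Both overlapped between the groups, with differences of 0.00 and −0.20 that changed sign when replicate 1 of HCT116 shScr was left out.

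The test of whether the knockdown effect differed between the lines called none of the 4 genes tested. Among all genes it called 584 of 19762 (2.96%). The effect on ERVK13-1 was larger in UF1hypo by 1.43 (limma, SE 0.381, adjusted p = 0.0944, unadjusted p = 0.00509), the largest gap in the family. It was called with GC content and length adjusted for, at 1.39 (adjusted p = 0.0294), and its adjusted p ranged from 0.0294 to 0.334 over 20 alternatives. The gaps were −0.54 for ERVMER34-1 (SE 0.289, adjusted p = 0.402), 0.54 for ERVK3-1 (SE 0.282, adjusted p = 0.386) and −0.43 for ERV3-1 (SE 0.328, adjusted p = 0.567). None of the other 3 had an unadjusted p below 0.05.

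**Figure D2:**
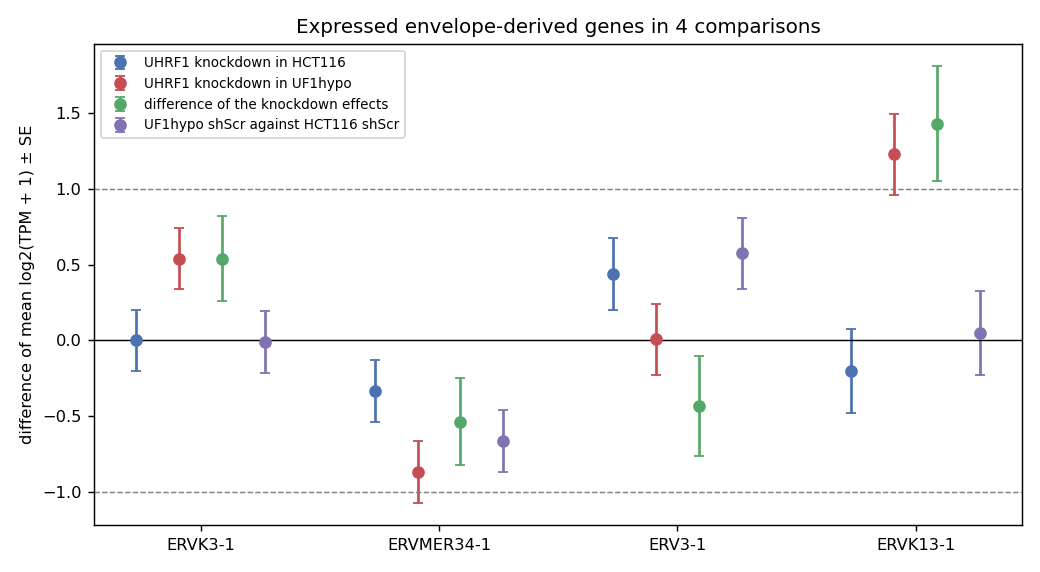
Difference of the mean log2(TPM + 1) with its standard error for the 4 envelope-derived genes above 1 TPM, in both knockdown comparisons, the difference of the knockdown effects and UF1hypo shScr against HCT116 shScr. Dashed lines mark a difference of 1 in either direction. In the UF1hypo knockdown and in the difference of the effects ERVK13-1 lies above the upper line, at 1.23 and 1.43, and ERVMER34-1 lies below 0 in all 4 comparisons.

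Between the control groups of the clone and its parent, both libraries of ERVMER34-1 lay lower and both of ERV3-1 higher in the clone, and neither gene was called. Of 17176 genes tested 453 (2.64%) were called, and 0 of the 4 envelope-derived genes. ERVMER34-1 had 13.4 and 12.4 TPM in UF1hypo shScr, below the 21.5 and 20.4 in HCT116 shScr, with a difference of −0.66 (limma, SE 0.206, unadjusted p = 0.0104, adjusted p = 0.142). Its limma adjusted p exceeded 0.05 in 17 of 22 alternatives. It was 0.0113 with the 4 libraries of this comparison alone, 0.00785 with library weights and 0.0413 with the GC content and length correction. The difference stayed under the size threshold in each alternative, from −0.72 to −0.48. ERV3-1 had 5.53 and 4.12 TPM, above 2.91 and 2.86, with a difference of 0.57 (SE 0.237, unadjusted p = 0.0382, adjusted p = 0.279). ERVK3-1 and ERVK13-1 overlapped, with differences of −0.01 and 0.05. This comparison and both knockdown comparisons share control libraries, so the steps of ERVMER34-1 from group to group are not independent of each other. UHRF1 was also lower in UF1hypo shScr than in HCT116 shScr, with a difference of −0.91 (adjusted p = 0.0676), and a property of the clone cannot be told apart from its UHRF1 level.

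Several of these genes lie within, across or just beside other genes. Strandedness of the libraries and of the counting is not given in the sources used here, so reads from opposite strands may not have been separated. DANCR and LINC01618, long non-coding RNA genes on the strand opposite to ERVMER34-1, share 127 and 221 of the 4022 exon bases of ERVMER34-1. DANCR had 71.5 and 80.0 TPM in UF1hypo shScr against 50.4 and 33.1 in UF1hypo shUHRF1, a difference of −0.87 (limma, SE 0.218, adjusted p = 0.039), and −0.01 in HCT116. LINC01618 had 0.448 and 1.44 TPM in UF1hypo shScr against 0.392 and 0.330 in UF1hypo shUHRF1. USP46, a deubiquitinase gene and the nearest protein-coding gene at lower coordinates, 63317 bp away, had differences of −0.73 in UF1hypo (adjusted p = 0.179) and 0.37 in HCT116 (adjusted p = 0.95).

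ERVK13-1 has the start of its annotation 144 bp from KCTD5, an adaptor gene for cullin ubiquitin ligases that runs the other way. KCTD5 had 82.3 and 77.9 TPM in UF1hypo shScr against 110 and 125 in UF1hypo shUHRF1, which did not overlap, with a difference of 0.55 (limma, SE 0.166, adjusted p = 0.0724) against 1.23 for ERVK13-1. On the other side PDPK1, a kinase gene 57160 bp away, had a difference of 0.46 (adjusted p = 0.29). The RefSeq start used for the promoter shown lies inside the span that the tables give to ERVK13-1.

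ERVK3-1 shares 876 of its 6117 exon bases with the readthrough gene ZNF8-ERVK3-1, 862 with CTD-3138B18.4 and 3025 with LLNLR-245B6.1 on the opposite strand, so its level is uncertain to that extent. ZNF8-ERVK3-1 had 0.862 and 2.02 TPM in UF1hypo shScr against 4.002 and 3.47 in UF1hypo shUHRF1, above the controls by 1.00 (limma, SE 0.318, adjusted p = 0.085). ZNF8, the zinc finger gene at the other end of this readthrough, moved by −0.23 (adjusted p = 0.494) and LLNLR-245B6.1 by −0.45 (adjusted p = 0.326). ERV3-1 shares 825 of its 5027 exon bases with ZNF117 on the same strand, which had 1.33 and 0.772 against 0.496 and 2.28 TPM and a difference of 0.12 (adjusted p = 0.86). Of the 19 protein-coding genes that overlap or flank the family 16 were tested in UF1hypo and 15 in HCT116. In either line 0 were called by limma, beside 8.24% of all genes in UF1hypo and 0.0177% in HCT116. So few genes cannot set 0 apart from those shares.

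**Figure D3:**
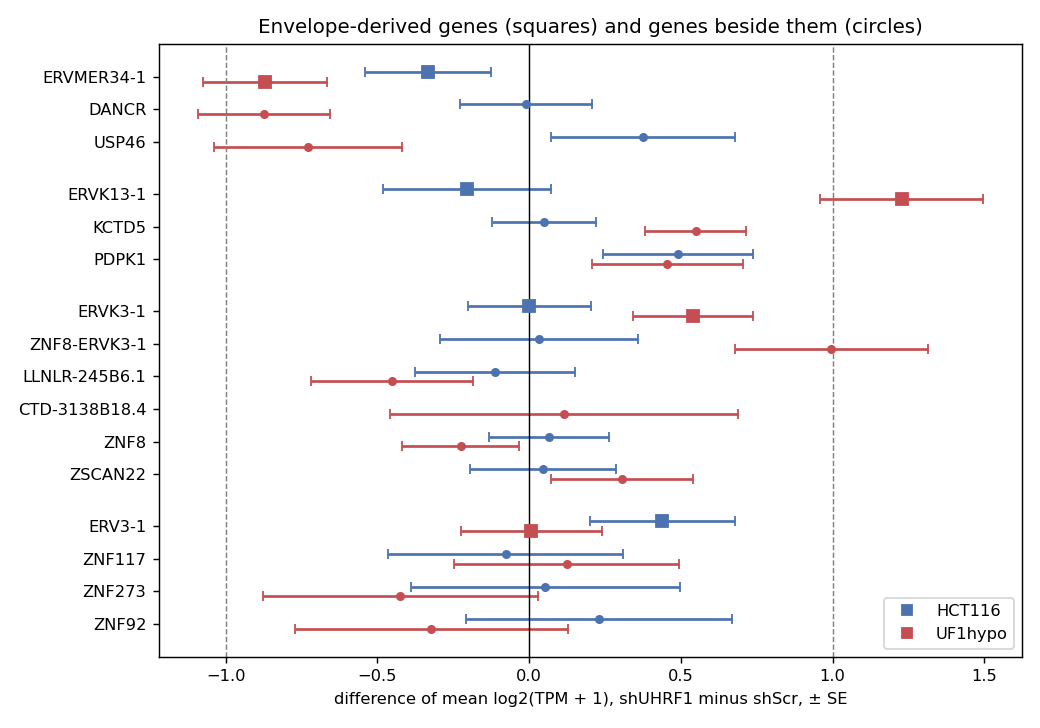
Difference of the mean log2(TPM + 1) on UHRF1 knockdown with its standard error, for 4 envelope-derived genes (squares) and genes that overlap or flank them (circles), in HCT116 (blue) and UF1hypo (red). Dashed lines mark a difference of 1 in either direction, and a gene without a point in a line was not tested there. ERVMER34-1 and DANCR both lie at −0.87 in UF1hypo, and of the genes shown only ERVK13-1 lies beyond a dashed line.

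Of the 6 other genes with an ERV symbol, ERVWE2 alone exceeded 1 TPM. ERVWE2 (ENSG00000233887.1, chromosome X, 97847263 to 97849017, plus strand) is annotated as a processed pseudogene and lies inside ERVFC1, a retroviral env gene that RefSeq places at 97841746 to 97849381. It was listed at 0 in all 4 HCT116 libraries, had 0.642 and 0 TPM in UF1hypo shScr, and rose to 8.80 and 7.92 in UF1hypo shUHRF1. The difference in UF1hypo was 2.87 (limma, SE 0.284, adjusted p = 0.000646), called in all 21 alternatives, and that between the lines was 2.87 as well (SE 0.408, adjusted p = 0.0103). ERVWE2 passed the TPM filter only through UF1hypo shUHRF1, so a call in UF1hypo could only be higher. The size of the difference depends on the added 1, since the controls are at or near 0, and with an added 0.1 it was 4.95. The call between the lines was lost there and without any 1 HCT116 library, and was kept in 15 of 20 alternatives. The window before the RefSeq start of ERVFC1, at chrX:97841496-97841745 on the plus strand, held 13 CpG sites and is shown in the same form.
ERVFC1: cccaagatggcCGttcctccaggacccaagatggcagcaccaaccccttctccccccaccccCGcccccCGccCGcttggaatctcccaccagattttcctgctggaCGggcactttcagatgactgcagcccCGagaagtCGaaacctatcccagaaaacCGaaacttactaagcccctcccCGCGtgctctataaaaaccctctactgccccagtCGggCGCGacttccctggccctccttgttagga

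ERVFRD-3, ERVE-1 and ERVK9-11 stayed below 1 TPM in every library, and ERVH-1 and ERVK-28 were listed at 0.

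The receptors of the syncytins were expressed throughout. SLC1A5, a neutral amino acid transporter that syncytin-1 binds, had 370 and 361 TPM with shScr and 269 and 235 with shUHRF1 in HCT116, and 251 and 259 with shScr and 357 and 322 with shUHRF1 in UF1hypo. Knockdown libraries thus lay below the controls in HCT116 and above them in UF1hypo, and the difference of the effects was 0.95 (limma, SE 0.192, adjusted p = 0.0396), under the size threshold. SLC1A4, a related transporter that syncytin-1 can also use, had 12.5 and 10.04, 6.11 and 4.83, 3.25 and 4.15, and 8.57 and 7.24 TPM in the same order of groups. Its difference was −0.92 in HCT116 (adjusted p = 0.366) and 0.93 in UF1hypo (adjusted p = 0.0393), and the difference of the effects was called at 1.85 (SE 0.326, adjusted p = 0.0244). That call was kept in 13 of 21 alternatives and was lost without any 1 library of HCT116 or of UF1hypo shScr. SLC1A4 was also called lower in UF1hypo shScr than in HCT116 shScr, by −1.39 (adjusted p = 0.0133), a call lost without any 1 of those 4 libraries. MFSD2A, a lysophosphatidylcholine transporter and the receptor of syncytin-2, ranged from 7.84 to 11.1 TPM and was called in none of the 4 comparisons.

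**Figure D4:**
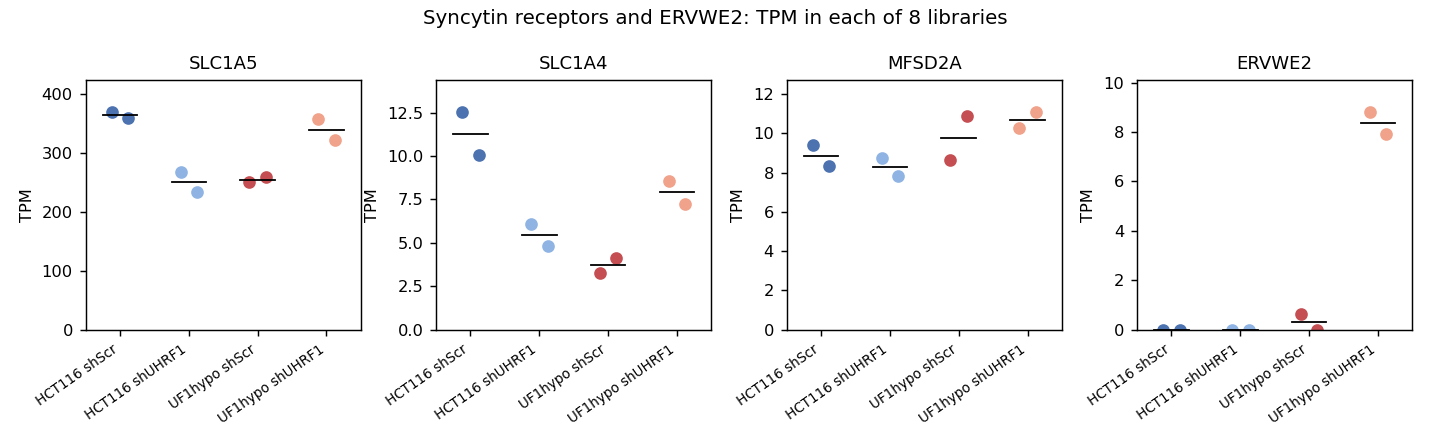
TPM (linear axis from 0, scaled separately in each panel) of the syncytin receptors SLC1A5, SLC1A4 and MFSD2A and of ERVWE2 by group, with a point for each of the 2 libraries and a bar at their mean. SLC1A5 and SLC1A4 are lower with shUHRF1 in HCT116 and higher with shUHRF1 in UF1hypo, and ERVWE2 is above 1 TPM only in UF1hypo shUHRF1, at 8.80 and 7.92.

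Genes derived from gag or pol, the other parts of a retrovirus, were compared as a group of 15. In the UF1hypo knockdown 9 were tested and 0 were called by limma, beside 8.24% of all genes, and 9 genes are too few to set 0 apart from that share. Their median difference was 0.53, beside 0.10 over all genes tested. ASPRV1 and NYNRIN among them stayed below 1 TPM in UF1hypo shScr and passed the TPM filter only through UF1hypo shUHRF1. The filter thus favored a higher median, and no result is drawn from it. The largest difference was that of ARC, a gag-derived gene that forms RNA-carrying capsids in neurons, with 25.2 and 28.6 TPM in UF1hypo shScr against 73.3 and 42.6 in UF1hypo shUHRF1 (1.03, SE 0.294, adjusted p = 0.0608). In HCT116 7 were tested and 0 called. PEG10, an imprinted gag-pol gene needed for the placenta, was called higher in UF1hypo shScr, at 13.8 and 12.9 TPM, than in HCT116 shScr, at 4.54 and 3.93 (1.46, adjusted p = 0.00701), and that call was lost without any 1 of those 4 libraries.

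Of 12 transcription factors that act in trophoblast 10 were tested in the UF1hypo knockdown, where DLX3 was called higher, PPARG lower and the other 8 were not called, beside 8.24% called over all genes. Their median difference was 0.14, beside 0.10 over all genes tested. GCM1, which activates both syncytin genes in the placenta, was at 0 in 4 libraries and reached at most 0.378 TPM. DLX3 had 0.521 and 0.248 TPM with shScr and 4.01 and 3.17 with shUHRF1, a difference of 1.73 (limma, SE 0.246, adjusted p = 0.0038) that was called in all 22 alternatives. DLX3 passed the TPM filter only through the shUHRF1 libraries, so its call could only be higher. PPARG, a nuclear receptor, had 42.3 and 49.5 against 18.1 and 24.8 TPM, a difference of −1.07 (SE 0.193, adjusted p = 0.0106). That of PPARG was called in 17 of 22 alternatives, not without either UF1hypo shScr library, and without replicate 1 of UF1hypo shUHRF1 it was −0.86. For PPARG the difference of the effects was called as well, at −1.30 (adjusted p = 0.0452), in 9 of 21 alternatives, and was lost without any 1 library of HCT116 or of UF1hypo shScr. Between the control groups TFAP2A (1.01, adjusted p = 0.0277) and GATA2 (1.25, adjusted p = 0.00934) were called higher in UF1hypo, both lost without any 1 of those 4 libraries, and TFAP2A also without any 1 of HCT116 shUHRF1 and with the replicate block. In HCT116 9 were tested and 0 were called.

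Of 27 factors that silence proviruses, among them UHRF1, DNMT1, TRIM28, SETDB1, HELLS and the HUSH subunits, 26 were tested in each comparison. None was called in any by limma, and UHRF1, the target of the hairpin, is counted here. Over all genes 8.24% were called in the UF1hypo knockdown and 0.0177% in HCT116. The share was 2.96% for the difference of the effects and 2.64% between the control groups. With 26 genes, 0 cannot be set apart from these shares. The median difference of the 26 was 0.01 in HCT116 and −0.11 in UF1hypo. DNMT1 had 147 and 162 TPM in UF1hypo shScr against 204 and 172 in UF1hypo shUHRF1 (0.28, adjusted p = 0.292). SETDB1, a histone H3 lysine methyltransferase, had 32.8 and 37.8 against 24.3 and 27.1 (−0.44, adjusted p = 0.136), with no overlap. HELLS, a chromatin remodeler, had 41.7 and 32.8 against 13.9 and 33.6, which overlapped.

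Among genes above 1 TPM whose level ranged over at least 1 on the log2 scale, the 3 that followed each expressed gene most closely over the 8 libraries were found by Pearson's r of log2(TPM + 1). ERVMER34-1 was followed by ASPH (r = 0.995), NUDT3 (0.994) and SLC39A10 (0.994). For ERVK13-1 they were ZNF28 (0.997), USP46-DT (0.993) and LINC00565 (0.992). ERVK3-1 had ARHGDIB (0.962), TBX19 (0.962) and AC005062.2 (0.956), and ERV3-1 had RP11-552F3.12 (0.954), FXYD1 (0.946) and FMR1-IT1 (0.924). These values are the highest of 11640 or 11641 candidates each, and the 8 libraries share their 4 groups, so they describe these libraries only.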

How the data were processed

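PolyA RNA of 8 libraries was sequenced in pairs of reads on an Illumina instrument. Per the labels and the study's methods the authors trimmed with Fastp, mapped against GRCh38 by HISAT2 2.0.4 and computed gene abundances with StringTie 2.1.4. The deposited TPM values were scaled by the authors for length of the gene and to a fixed total per library. The deposited FPKM values were scaled by the authors for gene length and for aligned bases. The deposited coverage is the mean per-base coverage of a gene and was not scaled for depth. No read counts are given, so the count-based DESeq2 test that the authors used could not be run, and aligned bases were recovered from coverage over FPKM in genes with 1 annotated transcript.

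Of 60649 identifiers, 60463 were matched to GENCODE version 44 for biotype and overlap, and coordinates are those of the tables. Records of 1 identifier were summed. Values of log2(TPM + 1) from the 8 libraries were fitted together in limma 3.58.1 (R 4.3.3) with 4 groups, 4 residual degrees of freedom and variances that follow mean expression. All genes above 1 TPM in at least 1 library of a comparison were tested, beyond the protein-coding genes of the study, because ERVK13-1 is non-coding. Values were called at an adjusted p below 0.05 with an absolute log2 difference above 1. The fit was tested on simulated data.

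The family, the lists and the tests were chosen with earlier results of these data known. Named are the 9 genes, UHRF1, readthrough, overlapping and flanking genes, the other genes with an ERV symbol above 1 TPM, the receptor, gag/pol, trophoblast and silencing lists, cell type markers, and the 3 most similar genes. From the lists, called genes and a few examples chosen after their values were seen (ARC, GCM1, DNMT1, SETDB1, HELLS, CGB5, KISS1) are given with values. As alternatives, 0.1 was added before the log in place of 1, the TPM filter was dropped or set on the mean, and the genes were limited to protein-coding ones or the libraries to the 4 compared. FPKM, median-ratio or quantile scaling, untrended variances, the largest record of an identifier, a replicate block and library weights were tried in turn, as were a GC content and length correction in 10 bins of each, and each library left out. A block with crossed numbers was added after seeing the data. Sequences came from RefSeq through a promoter table of GRCh38.p14. Other steps used Python 3.11.15, numpy 2.4.6, pandas 2.3.3 and matplotlib 3.10.9.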

Additional observations from a re-analysis of the deposited data

Results flagged for a closer look

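By limma's test of the difference of the effects, UHRF1 knockdown acted differently between the lines in 7 genes of the lists. Of these SLC1A5 stayed under the size threshold, and none of the 4 envelope-derived genes tested was among them. Over all genes 591 of 19762 had an adjusted p below 0.05 in this test. The 7 come from lists with 3 receptors, 10 trophoblast factors, 7 colon epithelial and 3 leukocyte markers and 1 other ERV gene tested. Among the lists that held none of them were those with 26 silencing factors, 16 protein-coding neighbours and 9 gag/pol genes tested. The lists were chosen with earlier results known, so no conclusion is drawn from their share beside that of all genes. The log2 difference of the effects, UF1hypo minus HCT116, was 2.87 for ERVWE2 (adjusted p = 0.0103), 1.85 for SLC1A4 (adjusted p = 0.0244) and 0.95 for SLC1A5 (adjusted p = 0.0396). It was −1.30 for PPARG (adjusted p = 0.0452). Among the cell type markers it was 2.98 for KRT20 (adjusted p = 0.00316), an intestinal keratin, and 1.95 for CD68 (adjusted p = 0.0113), a lysosomal protein of macrophages. For CDH1, which encodes E-cadherin, it was 1.14 (adjusted p = 0.0291). How these marker values hold under the alternatives is not given here.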

How the results depend on the processing

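Of 356 values of single envelope-derived genes under the alternatives, 330 kept their direction and were called, or not called, as before, 9 lost a call, 3 gained a call and 14 changed sign. Among the 330 the adjusted p rose past 0.05 in 9 and fell below it in 6, each time for ERVMER34-1 and without a difference above the size threshold. The number of these genes called in the UF1hypo knockdown went from 1 to 0 without the TPM filter, with protein-coding genes only (ERVK13-1 is then left out), with the 4 libraries alone, with FPKM and with library weights. It was 2 under quantile normalization, which adds ERVMER34-1 at −1.05 (limma, adjusted p = 0.0121), and 0 to 1 when each library was left out. For the difference of the effects it went from 0 to 1 with the GC content and length correction. It was 0 in HCT116 and between the control groups in every alternative.

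The sign changes were those of differences smaller than their standard errors. ERV3-1 in the UF1hypo knockdown was −0.040 with FPKM, −0.017 with median-ratio scaling and −0.21 with quantile normalization, and −0.17 to 0.18 with each library left out. ERVK3-1 in HCT116 was −0.014 with FPKM and −0.20 to 0.20 with each library left out. ERVK3-1 between the control groups was 0.041 with median-ratio scaling, 0.013 with quantile normalization and −0.17 to 0.15 with each library left out. ERVK13-1 was −0.44 to 0.027 in HCT116 and −0.18 to 0.28 between the control groups with each library left out. The cause was not tested.

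With the replicate block, which adds the replicate number as a term, 1 envelope-derived gene was called in the UF1hypo knockdown and 0 in the other comparisons, as without it, and over all genes 1358 in place of 1548 were called there. The numbers share nothing else in the labels. Same-numbered libraries deviated together with correlations of −0.01 to 0.01, except −0.26 between the UF1hypo groups, where the block with crossed numbers called 1 envelope-derived gene and 1495 of all genes. Quantile normalization and the GC correction shifted the differences of single genes in the UF1hypo knockdown by a median of −0.11 and −0.14 over all genes. Over all genes the number called in HCT116 ranged widely, with 3 called in the shared fit, 79 with the 4 libraries alone, 102 with library weights and 74 after the GC correction, and in UF1hypo 590 with the 4 libraries alone, 548 with library weights and 939 with FPKM.

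The 5 genes that stay under 1 TPM were left out by the filter, the added 1 shrinks their differences, and the reads behind them are unknown, so no call is given for them.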
